A study of Mus musculus with 4 samples.

Results

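Genes that build, remodel and break down glycerolipids were compared in the lungs of mice given bleomycin and mice given PBS. The set holds 37 genes, named by symbol as enzymes or cofactors of triacylglycerol and phospholipid synthesis, phospholipid remodelling and lipolysis. All 37 were found among the 17691 genes of the deposited table, and 36 had a mean of at least 1 FPKM (fragments per kilobase of transcript, scaled to the depth of the library) and were tested. Only Pcyt1b lay under that limit.

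All mice were wild-type C57BL/6 animals of 6 to 8 weeks, and whole lung was the source of RNA. One group had been given intranasal bleomycin, an antitumour drug that cuts DNA and injures the lung until it scars, and the other intranasal PBS, a salt buffer, for 10 days. There were 2 bleomycin libraries and 2 PBS libraries. The labels do not say that the 2 libraries of a group came from separate animals, so p-values measure only the spread between these libraries, which may be technical.

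Glycerolipid synthesis starts with the acylation of glycerol-3-phosphate to lysophosphatidate and phosphatidate. Phosphatidate is either dephosphorylated to diacylglycerol, the source of triacylglycerol, phosphatidylcholine and phosphatidylethanolamine, or activated to CDP-diacylglycerol, the source of phosphatidylglycerol and cardiolipin. Phospholipids are then remodelled by removal and replacement of single acyl chains. In lung, alveolar type II cells use these routes to make the phosphatidylcholine and phosphatidylglycerol of surfactant.

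The libraries were of lung, with Sftpc, the surfactant protein C gene, at 7913 to 10882 FPKM with bleomycin and 10221 to 12788 FPKM with PBS. Depth was estimated at 17300000 and 17700000 fragments with bleomycin and 17250000 and 17400000 with PBS. The groups differed in Y-linked transcripts: Eif2s3y was listed at 0 in both bleomycin libraries and stood at 26.4 and 28.9 FPKM in the PBS libraries, so treatment and the sex of the mice cannot be told apart. The spread between replicates over the members had a median SD of 0.131 in the bleomycin pair and 0.0651 in the PBS pair, on the log2(FPKM + 1) scale. Among other cell type lists, alveolar type I genes held 1 rise (Pdpn) and 2 falls (Rtkn2 and Clic5) among 6, and T and B cell genes, with Cd79a the highest, 0 calls among 5, with 0 at an unadjusted p under 0.05 and summed FPKM of 40.7 and 8.22 with bleomycin and 32.1 and 32.2 with PBS. In whole tissue, fewer cells of a type and less RNA per cell cannot be told apart, which holds for every difference given here.

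Bleomycin lungs had higher levels of 4 and lower levels of 6 of the 36 tested members, and 26 did not pass (limma, two-sided, with a threshold of 0.05 on p-values adjusted over all 12986 genes tested). The share of members called was 27.8%, against 16.3% of all genes (16.7% against 15.2% without a variance trend). By direction, 11.1% of members rose and 16.7% fell, against 8.59% and 7.69% of all genes. The median log2 change, bleomycin minus PBS, was -0.02 over the members and -0.02 over all genes tested. The calls by role are shown in the plot of change by role: the 4 rises were all in lysophospholipid reacylation, and the 6 falls lay in the lipins, the CDP-choline branch, CDP-diacylglycerol synthesis and lipolysis. The 2 groups of libraries did not overlap for 27 of the 36 members (12 higher and 15 lower with bleomycin), or 75%, against 66.5% of all genes (31.5% higher and 35% lower). Rescaled to TPM, the split of called members was 5 higher and 3 lower, and that of all genes called 1444 higher and 887 lower. Without PBS replicate 1 or PBS replicate 2, when the lone PBS library is assumed to vary like the bleomycin pair, limma called 0 members. At an unadjusted p under 0.05 it then gave 6 higher and 5 lower without PBS replicate 1, and 3 higher and 4 lower without PBS replicate 2. With bleomycin replicate 1 or 2 left out, the lone bleomycin library is assumed to vary like the PBS pair, the tighter of the 2 pairs. It then called 21 members (58.3%) and 42.2% of all genes without bleomycin replicate 1, and 18 members (50%) and 33.5% of all genes without bleomycin replicate 2.

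**Figure D1:**
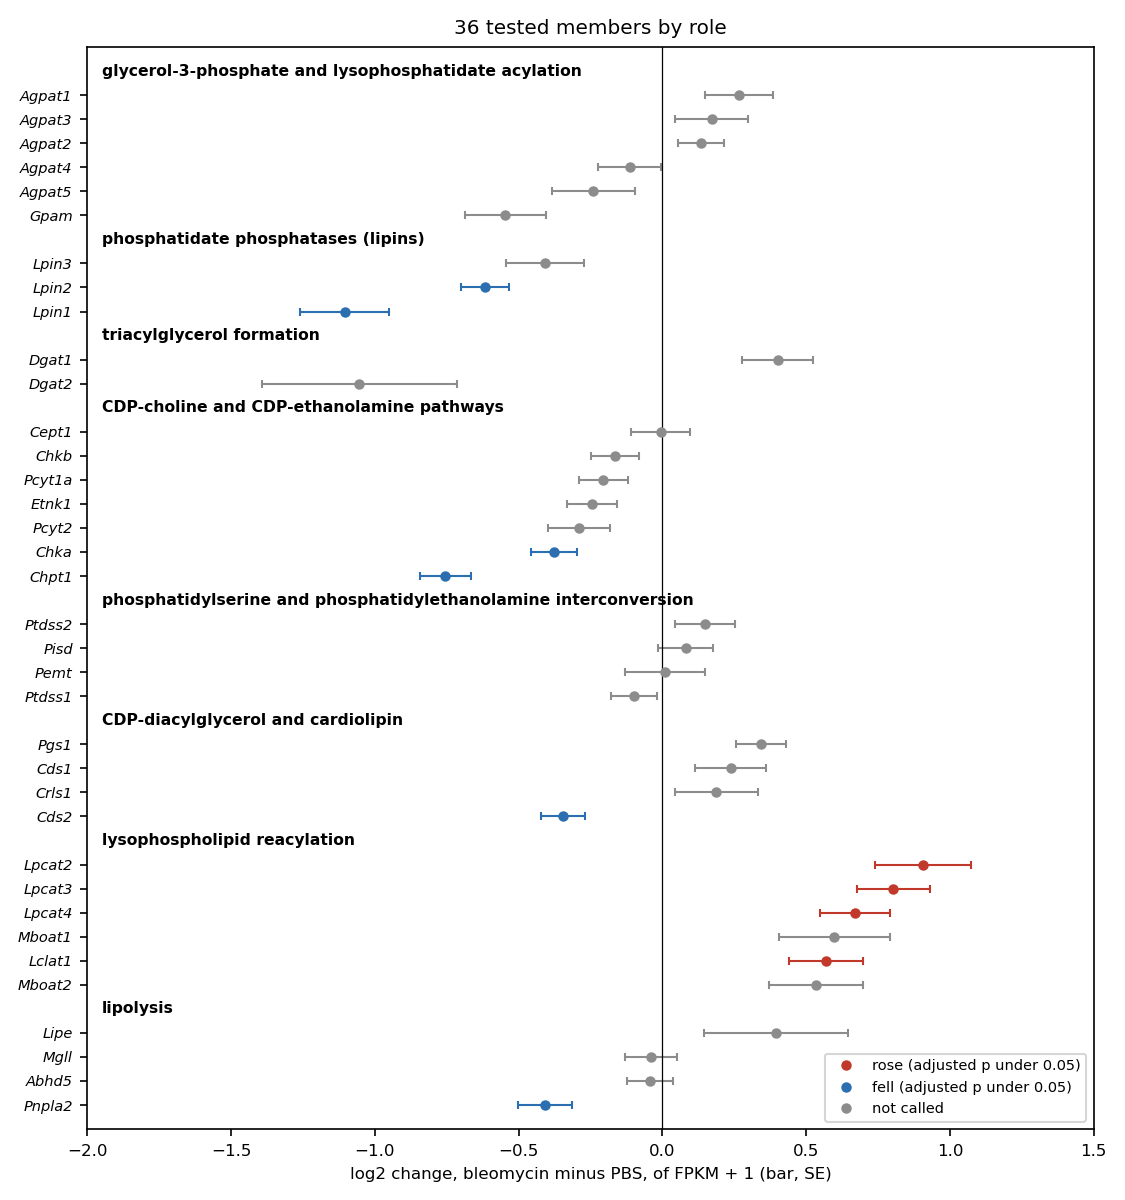
Log2 change of FPKM + 1 (bleomycin minus PBS, horizontal axis) of the 36 tested members, grouped by role, with the SE of the limma fit as bars and the colour giving the call at an adjusted p under 0.05. All 6 reacylation genes lie right of 0, between 0.54 and 0.91, and all 3 lipins lie left of it, between -1.11 and -0.41.

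Lysophospholipid acyltransferases, which put a new acyl chain on a phospholipid that has lost one, were higher with bleomycin in all 6 members, with no overlap between groups for any of them. Of all genes tested, 31.5% were higher without overlap. Lpcat2, Lpcat3, Lpcat4 and Lclat1 rose and Mboat1 and Mboat2 did not pass. Their summed FPKM was 94.4 and 93.5 in the bleomycin libraries, against 58.4 and 52.4 in the PBS libraries. The count of 4 became 0 of 6 without PBS replicate 1 or PBS replicate 2, 1 of 6 with no filter on low values, and 5 of 6 without bleomycin replicate 1 or bleomycin replicate 2, when the spread comes from the PBS pair alone.

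The promoter windows of the 3 Lpcat genes that rose, and of Chpt1, the largest fall of the CDP-choline branch, are shown for the letters around the starts of the genes that moved most in the 2 branches. Each window runs from 250 bases before to 50 bases after an annotated RefSeq start (GRCm38.p6) and is written 5′ to 3′ along the gene. Capitals mark matches, on either strand, to the CCAAT box (CCAAT), the GC box (GGGCGG) and the TATA box (TATAAA). Lpcat2 lies at chr8:92855083-92855382 on the plus strand, Lpcat3 at chr6:124662854-124663153 on the plus strand, Lpcat4 at chr2:112239591-112239890 on the plus strand and Chpt1 at chr10:88503921-88504220 on the minus strand.
Lpcat2: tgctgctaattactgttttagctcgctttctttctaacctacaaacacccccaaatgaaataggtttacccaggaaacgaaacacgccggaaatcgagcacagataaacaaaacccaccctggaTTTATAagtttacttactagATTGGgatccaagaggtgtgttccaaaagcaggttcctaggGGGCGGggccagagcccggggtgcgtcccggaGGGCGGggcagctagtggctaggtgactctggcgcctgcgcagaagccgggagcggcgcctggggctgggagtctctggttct
Lpcat3: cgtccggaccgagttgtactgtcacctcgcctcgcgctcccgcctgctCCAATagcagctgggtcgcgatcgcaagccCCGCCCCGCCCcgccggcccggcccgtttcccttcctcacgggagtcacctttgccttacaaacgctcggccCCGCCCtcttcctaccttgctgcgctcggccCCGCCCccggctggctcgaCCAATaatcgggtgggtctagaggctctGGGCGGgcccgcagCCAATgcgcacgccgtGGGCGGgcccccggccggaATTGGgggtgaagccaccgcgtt
Lpcat4: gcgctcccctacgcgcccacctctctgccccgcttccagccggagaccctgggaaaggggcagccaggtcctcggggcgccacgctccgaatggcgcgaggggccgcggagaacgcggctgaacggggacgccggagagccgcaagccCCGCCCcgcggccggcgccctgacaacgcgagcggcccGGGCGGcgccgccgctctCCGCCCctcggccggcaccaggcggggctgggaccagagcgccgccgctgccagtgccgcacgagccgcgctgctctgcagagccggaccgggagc
Chpt1: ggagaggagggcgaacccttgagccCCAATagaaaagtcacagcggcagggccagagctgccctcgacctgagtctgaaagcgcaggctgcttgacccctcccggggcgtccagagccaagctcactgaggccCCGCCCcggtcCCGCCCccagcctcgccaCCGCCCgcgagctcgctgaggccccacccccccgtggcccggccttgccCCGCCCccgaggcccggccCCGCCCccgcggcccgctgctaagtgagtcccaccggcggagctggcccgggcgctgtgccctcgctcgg

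The GC content of these windows was 54.7% for Lpcat2, 71% for Lpcat3, 79% for Lpcat4 and 75.3% for Chpt1, against a median of 52.7% over all 32851 windows. GC boxes numbered 2, 6, 3 and 5 in the same order, and a GC box was in 35.7% of all windows. A pair of those in Lpcat3 overlap by a single base. CCAAT boxes numbered 4 in Lpcat3 and 1 each in Lpcat2 and Chpt1, and 37.4% of all windows hold one. A match to the TATA box letters began at base 125 of the Lpcat2 window, on the opposite strand, and 13.6% of all windows hold a match. Of the 37 members, 32 had a window, 48 windows in all, of which 64.6% held a GC box, 39.6% a CCAAT box and 4.17% a TATA box. The median GC content of these 48 windows was 63.3%, and its part in the share with a GC box was not tested. The E-box CACGTG was in 10.4% of the members' windows and 7.15% of all, and the AP-1 letters TGANTCA in 4.17% and 7.81%. The sterol element TCACNCCAC was in 4.17% and 1.24%. Its matches among the members were the same site in 2 overlapping windows of 1 member, Pcyt1a. The E-box and TCACNCCAC matches were in windows of other members than these 4. A match is a description of letters and not a measured binding site.

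Lpcat2, which reacylates lysophosphatidylcholine and makes platelet-activating factor, had 8.74 and 6.35 FPKM in the bleomycin libraries, against 3.38 and 3.65 FPKM in the PBS libraries. Each bleomycin library lay 1.74 to 2.59 times as high as a PBS library, and the log2 change was 0.91 ± 0.17 (SE, n = 2 per group here and throughout; adjusted p = 0.0303 by limma). Lpcat3, which places polyunsaturated chains into phosphatidylcholine and is an LXR target in mouse, had 32 and 39.9 FPKM with bleomycin, against 20.4 and 19.6 FPKM with PBS. Its log2 change was 0.80 ± 0.13 (adjusted p = 0.0222 by limma), and it was the seventh highest of the members with bleomycin and the eighteenth with PBS. Lpcat4, which acts on lysophosphatidylethanolamine and lysophosphatidylcholine, had 19.3 and 18 FPKM with bleomycin, against 12.6 and 10.3 FPKM with PBS, a log2 change of 0.67 ± 0.12 (adjusted p = 0.0301 by limma). Lclat1, the lysocardiolipin acyltransferase, had 23.4 and 18.8 FPKM with bleomycin, against 14.3 and 13.3 FPKM with PBS, a log2 change of 0.57 ± 0.13 (adjusted p = 0.0485 by limma). In all 4 the lower bleomycin library stood above the higher PBS library. In GRCm38.p6, Lpcat2 lies on chromosome 8 (92855313 to 92919279), Lpcat3 on chromosome 6 (124663094 to 124704716), Lpcat4 on chromosome 2 (112239841 to 112247111) and Lclat1 on chromosome 17 (73107985 to 73243368).

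Mboat1, which prefers lysophosphatidylserine and lysophosphatidylethanolamine, had 7.65 and 6.25 FPKM with bleomycin, against 5.11 and 3.48 FPKM with PBS (log2 change 0.60 ± 0.19, adjusted p = 0.102 by limma). Mboat2, a relative, had 3.34 and 4.28 FPKM with bleomycin, against 2.59 and 2.04 FPKM with PBS (0.54 ± 0.16, adjusted p = 0.0916 by limma). With no filter on low values, the adjusted p was 0.0647 for Lpcat2, 0.057 for Lpcat4 and 0.0811 for Lclat1, and without a variance trend it was 0.0609 for Lclat1. The reference annotation places Emg1 over the span of Lpcat3 and Capns2 over that of Lpcat2, and whether the counting used strand is not given in the sources used here. Capns2 was at or under 0.23 FPKM in every library, and Emg1 had 36.9 and 30.7 FPKM with bleomycin and 39.3 and 39.5 FPKM with PBS.

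Most macrophage markers were higher in the same libraries. Of 7 macrophage genes 5 rose and 0 fell, with summed FPKM of 412 to 574 with bleomycin and 176 to 184 with PBS, and no marker was at 0 in any library. Trem2 and C1qa had the largest called rises, of 3.05 and 1.67 on the log2 scale, and Cd68 came next. Csf1r was not called and overlapped between groups (log2 change -0.17). Marco, also not called, had 11.7 and 64.2 FPKM with bleomycin, against 6.24 and 6.04 FPKM with PBS. The alveolar type II list held 2 rises, of Napsa (0.86) and Sftpd (0.81), and 0 falls among 8 genes, with summed FPKM of 10990 to 14028 with bleomycin and 12893 to 15664 with PBS. Called or not, 4 of its genes were higher without overlap, 1, Sftpa1 (-0.54), was lower, and 3 overlapped. The median log2 change of that list was 0.03. The part of either in the reacylation genes was not tested.

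**Figure D2:**
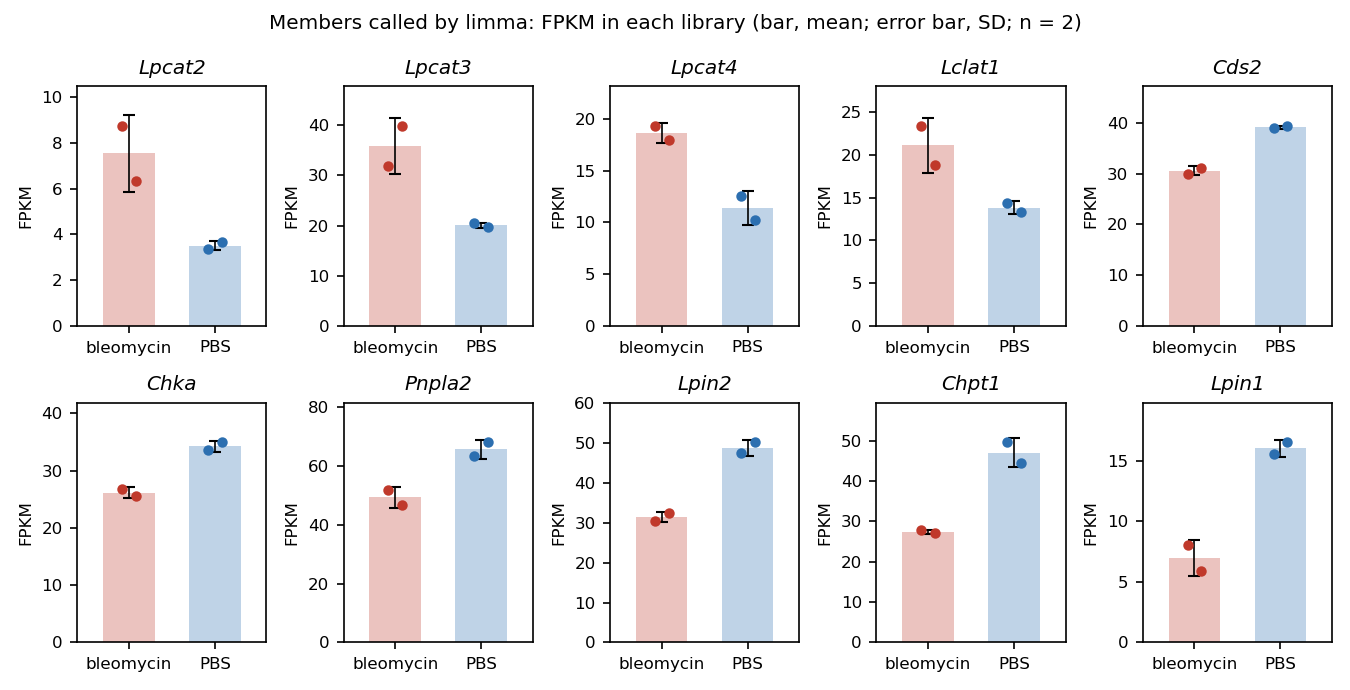
FPKM in each library (points) of the 10 members called by limma, with group means as bars and SDs as error bars (n = 2), bleomycin left and PBS right in each panel, in order of log2 change. Lpcat2, Lpcat3, Lpcat4 and Lclat1 are higher with bleomycin and the other 6 lower, with no overlap in any panel.

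Among other acyltransferases of this kind that were no members, Lpcat1, the enzyme of surfactant phosphatidylcholine remodelling, had 48.8 and 47.5 FPKM with bleomycin, against 41.3 and 37.9 FPKM with PBS (log2 change 0.28 ± 0.08, adjusted p = 0.0904 by limma). Of the 3 tested genes on that list, 0 passed limma, and Lpcat1 and Mboat7 had an unadjusted p under 0.05 (0.0231 and 0.0289). Both were higher in each bleomycin library than in either PBS library.

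The lipins, the phosphatidate phosphatases that make diacylglycerol for triacylglycerol and phosphatidylcholine, were lower with bleomycin in all 3 members without overlap, as were 35% of all genes tested. Lpin1 and Lpin2 fell and Lpin3 did not pass. Lpin1, of which the protein also acts as a nuclear coactivator, had 8.04 and 5.91 FPKM with bleomycin, against 15.5 and 16.5 FPKM with PBS. Its log2 change of -1.11 ± 0.15 (adjusted p = 0.0175 by limma) was the largest of the members in size in this fit. Dgat2, which did not pass, had a larger one with a pseudocount of 0.1 (-1.22, against -1.20 for Lpin1), without PBS replicate 1 (-1.17, against -1.15) and without bleomycin replicate 1 (-1.55, against -1.30). Lpin2 had 30.5 and 32.4 FPKM with bleomycin, against 47.4 and 50.1 FPKM with PBS, a log2 change of -0.62 ± 0.08 (adjusted p = 0.0164 by limma). Lpin3 had 3.44 and 2.85 FPKM with bleomycin, against 4.17 and 4.83 FPKM with PBS (-0.41 ± 0.14, adjusted p = 0.108 by limma). Lpin1 lies on chromosome 12 (16535669 to 16653903) and Lpin2 on chromosome 17 (71183532 to 71249818), and the span of Lpin1 overlaps that of Ntsr2, which was at or under 0.68 FPKM in every library.

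Lpin2 was the main lipin transcript in every library, as FPKM allows levels of genes to be compared per length. It made up 72.7% and 78.7% of summed lipin FPKM with bleomycin and 70.6% and 70.2% with PBS. Lpin1 made up 19.1% and 14.4% with bleomycin and 23.1% and 23.1% with PBS, and Lpin3 8.19% and 6.93% with bleomycin and 6.22% and 6.76% with PBS. The summed lipin FPKM was 42 and 41.1 with bleomycin, against 67.1 and 71.5 with PBS. With 2 libraries against 2, the exact two-sided permutation test of such a sum or share cannot go below p = 0.333, which was its value for the lipin sum, for the Lpin1, Lpin2 and Lpin3 shares and for the reacylation sum.

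Circadian output genes and some glucocorticoid targets moved in the same libraries as Lpin1. Lpin1 is known in mouse to vary with the time of day and to be induced by glucocorticoids. Of 11 clock genes 0 rose and 4 fell, with summed FPKM of 151 to 302 with bleomycin and 594 to 643 with PBS. Without overlap, 9 were lower and 2, Arntl and Clock, higher (log2 changes 1.27 and 0.45, neither called). The bleomycin libraries differed widely from each other in Dbp (37.2 and 3.33 FPKM) and Nr1d1 (54 and 6.68 FPKM). Hlf, Tef and Per3 had log2 changes of -1.84 ± 0.24, -1.56 ± 0.16 and -1.38 ± 0.24. Of 7 glucocorticoid targets 1 rose and 2 fell, with summed FPKM of 432 to 580 with bleomycin and 703 to 745 with PBS. Zbtb16 and Tsc22d3 fell by 1.67 and 1.05 on the log2 scale and Sgk1 rose by 0.85. Called or not, 4 of the targets were lower without overlap and 1 was higher. The other 2, Fkbp5 and Dusp1 (log2 changes 0.14 and 0.08), overlapped between groups. Per1 is on both lists. The part of either list in the falls of the lipins was not tested.

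Cell surface lipid phosphate phosphatases, which dephosphorylate lysophosphatidate outside the cell and are no lipins, held 2 falls and 1 rise. Plpp3 had 38.2 and 38.4 FPKM with bleomycin, against 87.2 and 82.9 FPKM with PBS, a log2 change of -1.13 ± 0.08 (adjusted p = 0.00616 by limma). Plpp2 had 17.1 and 19.1 FPKM with bleomycin, against 11.1 and 10.7 FPKM with PBS, a log2 change of 0.68 ± 0.09 (adjusted p = 0.0175 by limma). Plpp1, named after its values were seen, fell as well, with 91.7 and 94.4 FPKM with bleomycin, against 133.6 and 163.6 FPKM with PBS. Gk, the glycerol kinase gene, had 3.8 and 4.08 FPKM with bleomycin, against 2.11 and 2.1 FPKM with PBS, a log2 change of 0.67 ± 0.11 (adjusted p = 0.0259 by limma). These 4 were the called genes among the 9 tested of the list of other acyltransferases and phosphatases, beside 16.3% of all genes.

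Most endothelial and alveolar fibroblast markers were lower in the same libraries, while Cldn5 (log2 change -0.22) and Pdgfra (-0.03) overlapped between groups. Of 5 endothelial genes 0 rose and 2 fell, with summed FPKM of 725 to 787 with bleomycin and 1021 to 1049.5 with PBS, and of 7 alveolar fibroblast genes 0 rose and 4 fell, with 561 to 783 with bleomycin and 3231 to 3782 with PBS. Tek and Kdr were the called endothelial genes (-0.80 and -0.95), and Inmt, Ces1d and Tcf21 the largest called fibroblast falls (-3.50, -1.65 and -1.12). No marker of either list was at 0 in any library, and their part in the falls of the lipins, Plpp1 and Plpp3 was not tested.

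The CDP-choline and CDP-ethanolamine pathways join a phosphorylated head group to diacylglycerol. Of their 7 tested members 2 fell and none rose, beside 7.69% and 8.59% of all genes. The bleomycin libraries lay under the PBS libraries for 6 of the 7, and for 35% of all genes tested. The summed FPKM of the branch was 171 and 167 with bleomycin, against 211 and 213 with PBS. Chpt1, the choline phosphotransferase that finishes phosphatidylcholine, had 27.8 and 27.1 FPKM with bleomycin, against 49.5 and 44.5 FPKM with PBS. This was a log2 change of -0.76 ± 0.09 (adjusted p = 0.013 by limma), and Chpt1 was the fourth highest of the members with PBS and the eleventh with bleomycin. Cept1, which does the same step for both head groups, had 28.9 and 25.2 FPKM with bleomycin, against 26.1 and 28.2 FPKM with PBS (log2 change -0.01 ± 0.10, 95% interval -0.27 to 0.26, adjusted p = 0.973 by limma). The ratio of Chpt1 to Cept1 was 0.963 and 1.07 with bleomycin, against 1.9 and 1.58 with PBS (p = 0.333 by the exact permutation test, its smallest). The span of Chpt1 overlaps that of Sycp3, which had 1.26 and 1.46 FPKM with bleomycin and 2.92 and 2.6 FPKM with PBS. The span of Cept1 overlaps those of Dram2 and Dennd2d. Dram2 had 34.6 and 34.9 FPKM with bleomycin and 36.4 and 35.6 FPKM with PBS. Dennd2d had 3.88 and 3.53 FPKM with bleomycin and 3.67 and 3.28 FPKM with PBS. Chpt1 lies on chromosome 10 (88469513 to 88503970) and Chka on chromosome 19 (3851585 to 3894369).

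Chka, a choline kinase gene, had 26.9 and 25.5 FPKM with bleomycin, against 33.6 and 34.9 FPKM with PBS, a log2 change of -0.38 ± 0.08 (adjusted p = 0.0422 by limma). That call was lost with no filter (adjusted p = 0.0513), rescaled to TPM (0.0543) and without a variance trend (0.0632). Pcyt1a, which makes CDP-choline in the rate-limiting step of phosphatidylcholine synthesis, had 23.3 and 25.6 FPKM with bleomycin, against 28.2 and 28.3 FPKM with PBS (-0.21 ± 0.09, adjusted p = 0.166 by limma). Pcyt1b, which encodes another form of that enzyme and lay under the filter, was at 0.69 and 0.39 FPKM with bleomycin and 0.92 and 0.55 FPKM with PBS, or about 58 and 34 fragments with bleomycin and 77 and 47 with PBS from the estimated depth.

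Chkb, the other choline kinase gene, Etnk1, the ethanolamine kinase gene, and Pcyt2, which makes CDP-ethanolamine, did not pass. Their log2 changes were -0.17 ± 0.08, -0.24 ± 0.09 and -0.29 ± 0.11 (adjusted p = 0.229, 0.125 and 0.135 by limma). All 3 were lower in each bleomycin library than in either PBS library. The ratio of summed reacylation FPKM to summed FPKM of this branch was 0.551 and 0.56 with bleomycin, against 0.276 and 0.245 with PBS (p = 0.333 by the exact permutation test, its smallest).

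**Figure D3:**
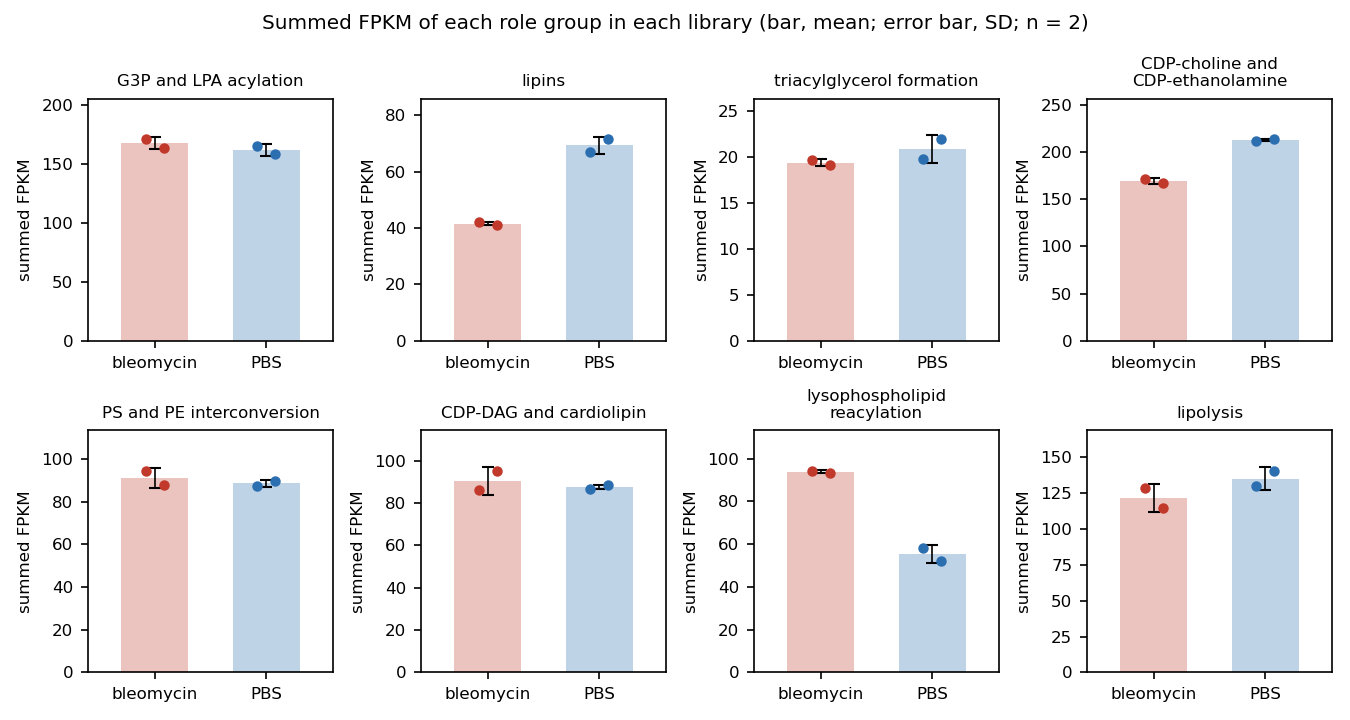
Summed FPKM of the members of each role group in each library (points), with group means as bars and SDs as error bars (n = 2), bleomycin left and PBS right in each panel. The lipin sum is 42 and 41.1 with bleomycin and 67.1 and 71.5 with PBS, and the reacylation sum 94.4 and 93.5 with bleomycin and 58.4 and 52.4 with PBS.

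The enzymes that acylate glycerol-3-phosphate and lysophosphatidate held 0 calls among 6 members by limma, and 1, Gpam, had an unadjusted p under 0.05. Gpam, the mitochondrial glycerol-3-phosphate acyltransferase, had 9.45 and 8.64 FPKM with bleomycin, against 15.5 and 12.1 FPKM with PBS (log2 change -0.55 ± 0.14, adjusted p = 0.065 by limma). Agpat3, the lysophosphatidate acyltransferase gene with the highest mean with bleomycin, had 40.6 and 50.7 FPKM with bleomycin, against 41.2 and 39.2 FPKM with PBS (0.17 ± 0.13, adjusted p = 0.391 by limma). Its relatives Agpat1, Agpat2, Agpat4 and Agpat5 had log2 changes of 0.27 ± 0.12, 0.13 ± 0.08, -0.11 ± 0.11 and -0.24 ± 0.15. The summed FPKM of the 6 genes was 171 and 164 with bleomycin and 165 and 158 with PBS, so that the groups overlapped.

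The final acylation to triacylglycerol has 2 enzymes of unrelated sequence, and neither passed limma, although both had an unadjusted p under 0.05 (0.0251 for Dgat1 and 0.0284 for Dgat2). Dgat1 had 13.3 and 16.4 FPKM with bleomycin, against 10.7 and 11.2 FPKM with PBS (log2 change 0.40 ± 0.12, adjusted p = 0.0947 by limma). Dgat2 had 6.34 and 2.72 FPKM with bleomycin, against 9.03 and 10.8 FPKM with PBS (-1.05 ± 0.34, adjusted p = 0.102 by limma). The bleomycin libraries differed in Dgat2 by more than they did in Dgat1. Without bleomycin replicate 1 the log2 change of Dgat2 was -1.55 and without bleomycin replicate 2 it was -0.56. For Dgat1 the change was 0.54 without bleomycin replicate 1 and 0.26 without bleomycin replicate 2. The ratio of Dgat1 to Dgat2 was 2.1 and 6.03 with bleomycin, against 1.19 and 1.04 with PBS (p = 0.333 by the exact permutation test, its smallest).

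Of the enzymes that exchange phosphatidylserine and phosphatidylethanolamine, 0 of 4 passed limma, and 0 had an unadjusted p under 0.05. Pisd, the mitochondrial phosphatidylserine decarboxylase and the highest of all members with bleomycin, had 54.4 and 47.8 FPKM with bleomycin, against 48.2 and 48.2 FPKM with PBS (log2 change 0.08 ± 0.09, 95% interval -0.17 to 0.33). Ptdss1 and Ptdss2, the serine base-exchange enzymes, had log2 changes of -0.10 ± 0.08 and 0.15 ± 0.10. Pemt, which methylates phosphatidylethanolamine chiefly in liver, had 2.46 and 3.02 FPKM with bleomycin, against 2.53 and 2.89 FPKM with PBS (0.01 ± 0.14). The Pemt values overlapped between groups and stood for about 41 and 51 fragments with bleomycin and 42 and 48 with PBS, from the estimated depth. Hepatocyte transcripts, led by Alb, Fgb and Apoa2, fell in all 8 genes of their list in the same libraries. Their summed FPKM was 8.34 to 9.76 with bleomycin and 98.2 to 98.4 with PBS, and their part in the Pemt values was not tested.

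In the CDP-diacylglycerol branch 1 of 4 members fell, beside 7.69% of all genes. Cds2, a CDP-diacylglycerol synthase gene, had 30 and 31.2 FPKM with bleomycin, against 38.9 and 39.4 FPKM with PBS, a log2 change of -0.35 ± 0.08 (adjusted p = 0.0452 by limma). It lies on chromosome 2 (132253338 to 132312050). The call was lost rescaled to TPM (adjusted p = 0.0741), with upper quartile scaling (0.0587) and without a variance trend (0.0687). Cds1, the other synthase gene, had 9.06 and 10.6 FPKM with bleomycin, against 8.78 and 7.62 FPKM with PBS (0.24 ± 0.13, adjusted p = 0.245 by limma). Pgs1, which commits CDP-diacylglycerol to phosphatidylglycerol, had 36.2 and 39.8 FPKM with bleomycin, against 29.3 and 30.2 FPKM with PBS (0.34 ± 0.09, adjusted p = 0.0617 by limma, and 0.0454 rescaled to TPM). Crls1, the cardiolipin synthase gene, had 10.7 and 13.6 FPKM with bleomycin, against 9.85 and 11.2 FPKM with PBS, so that the groups overlapped. Taz is the tafazzin gene, of which the product remodels cardiolipin. It was the called gene among 9 tested partners of ether lipid, inositol lipid and cardiolipin synthesis, beside 16.3% of all genes. It had 22.6 and 20.6 FPKM with bleomycin, against 29.6 and 30.4 FPKM with PBS (-0.46 ± 0.09, adjusted p = 0.0326 by limma).

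Lipolysis is opened by the triacylglycerol lipase gene Pnpla2, whose product is activated by that of Abhd5, and goes on through Lipe, the hormone-sensitive lipase gene, and Mgll, the monoacylglycerol lipase gene. Pnpla2 fell and the other 3 did not pass. Pnpla2, the highest of the members with PBS, had 51.9 and 46.9 FPKM with bleomycin, against 63.5 and 68.1 FPKM with PBS, a log2 change of -0.41 ± 0.09 (adjusted p = 0.0494 by limma). It lies on chromosome 7 (141455188 to 141460743). This call stood next to the threshold and was lost without a filter (adjusted p = 0.0669), rescaled to TPM (0.0566), without a variance trend (0.0687), with a robust prior (0.0506) and with a pseudocount of 0.1 (0.05).

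Abhd5 had 21 and 20.5 FPKM with bleomycin, against 21 and 21.8 FPKM with PBS (log2 change -0.04 ± 0.08, 95% interval -0.25 to 0.16). Mgll had 34.1 and 34.6 FPKM with bleomycin, against 33.4 and 37.3 FPKM with PBS (-0.04 ± 0.09, 95% interval -0.27 to 0.19). Lipe had 21.8 and 13 FPKM with bleomycin, against 11.8 and 13.5 FPKM with PBS (0.39 ± 0.25, adjusted p = 0.32 by limma), with bleomycin replicate 1 alone above the PBS libraries. Without bleomycin replicate 2 the log2 change of Lipe was 0.75, and without bleomycin replicate 1 it was 0.04 and the groups overlapped. Adipocyte markers were low, with summed FPKM of 4.39 to 7.8 with bleomycin and 14.9 to 21.1 with PBS. Of 8 such genes 2 passed the filter and 1 fell, Cidec, by 1.31 on the log2 scale. Adipoq stood at 0.14 and 0.05 FPKM with bleomycin and 0.7 and 1.1 FPKM with PBS, and none of the 8 was at 0 in all libraries. Their part in Lipe, Dgat2 and Pnpla2 was not tested.

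Among lipid droplet coats and regulators of lipolysis, 1 of 10 tested genes rose and 2 fell, beside 8.59% and 7.69% of all genes. G0s2, which encodes an inhibitor of the Pnpla2 lipase, had 23 and 10.6 FPKM with bleomycin, against 48.8 and 52.4 FPKM with PBS, a log2 change of -1.63 ± 0.35 (adjusted p = 0.0435 by limma). Ces1f, of a cluster of near-identical carboxylesterase genes whose fragments the authors' counting could split, had 0.58 and 0.69 FPKM with bleomycin, against 4.49 and 2.86 FPKM with PBS (-1.49 ± 0.21, adjusted p = 0.0176 by limma). The part of the lower hepatocyte transcripts in it was not tested. Abhd12, a lysophosphatidylserine lipase gene, had 54.3 and 45.8 FPKM with bleomycin, against 34.8 and 35.3 FPKM with PBS (0.50 ± 0.11, adjusted p = 0.0436 by limma). Plin2, a lipid droplet coat, and Hilpda, which encodes another inhibitor of the same lipase, were named after their values were seen. Plin2 had 114.7 and 67.5 FPKM with bleomycin, against 59.8 and 63.6 FPKM with PBS (0.51 ± 0.26, adjusted p = 0.233 by limma). Hilpda had 46.1 and 89.4 FPKM with bleomycin, against 108.1 and 131 FPKM with PBS (-0.88 ± 0.33, adjusted p = 0.134 by limma).

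Phospholipases, which remove acyl chains or head groups, held 5 rises and 1 fall among 18 tested genes, beside 8.59% and 7.69% of all genes. Pla1a, the phosphatidylserine phospholipase gene, had 9 and 16.5 FPKM with bleomycin, against 1.42 and 1.73 FPKM with PBS, a log2 change of 2.36 ± 0.29 (adjusted p = 0.0133 by limma). Pla2g7, which encodes the hydrolase that inactivates platelet-activating factor, had 25.3 and 23.3 FPKM with bleomycin, against 6.03 and 7.95 FPKM with PBS, a log2 change of 1.67 ± 0.14 (adjusted p = 0.00765 by limma). Pld3, by name a phospholipase D but known as a lysosomal nuclease, had 125.0 and 100.9 FPKM with bleomycin, against 51.9 and 51.6 FPKM with PBS, a log2 change of 1.10 ± 0.12 (adjusted p = 0.0121 by limma). Ddhd1 and Plb1 were the other rises and Gdpd1 the fall, with log2 changes of 0.62 ± 0.09, 0.48 ± 0.09 and -0.53 ± 0.08, and are named after their values were seen. Most genes of the macrophage list given above were higher in the same libraries, and the part of that list in these rises was not tested.

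Of 13 genes of phospholipid transfer and surfactant export, 1 fell and none rose. Pltp, the phospholipid transfer protein gene, had 234.9 and 142.4 FPKM with bleomycin, against 403.5 and 415.8 FPKM with PBS, a log2 change of -1.16 ± 0.25 (adjusted p = 0.0433 by limma). Over all 62 tested genes of these 6 lists 8 rose, 7 fell and 47 did not pass, with a median log2 change of 0.03, as the plot of members and other pathway genes shows. Of all genes tested, 8.59% rose and 7.69% fell. Among 10 tested regulators of glycerolipid genes, Ppard rose, with 17.5 and 17.2 FPKM with bleomycin, against 13.1 and 12.7 FPKM with PBS (0.40 ± 0.08, adjusted p = 0.0372 by limma), and the other 9 did not pass. Without either PBS library, limma called none of these genes.

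**Figure D4:**
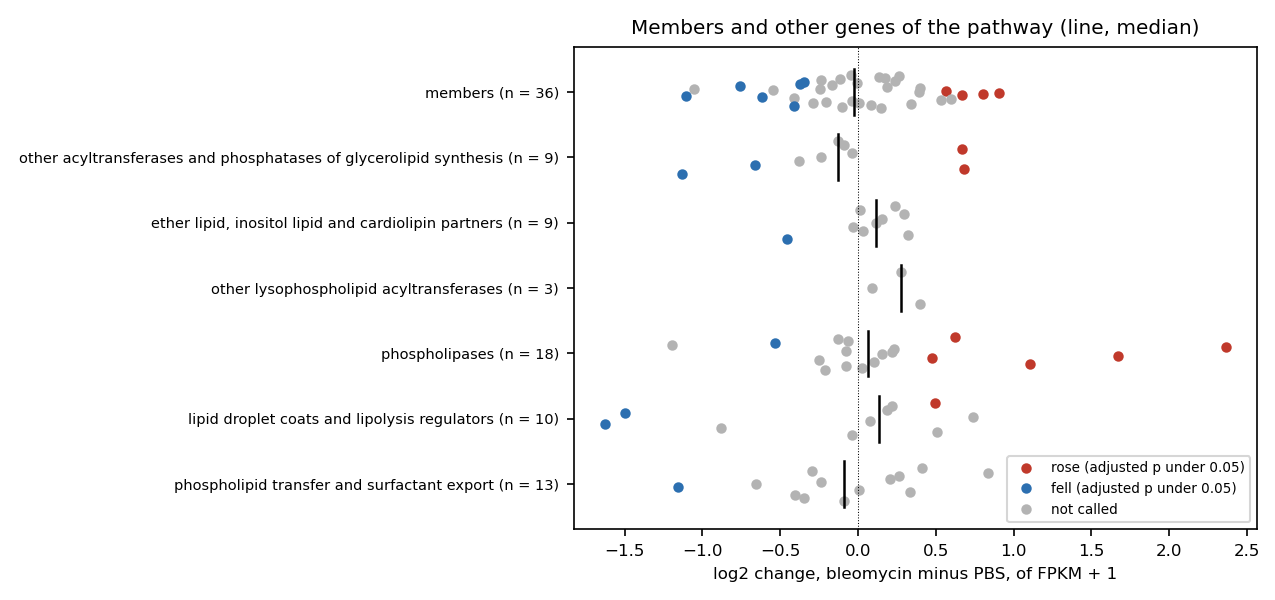
Log2 change of FPKM + 1 (bleomycin minus PBS, horizontal axis) of the 36 tested members and of 62 other tested genes of the pathway in 6 lists, 1 point per gene, with the colour giving the call at an adjusted p under 0.05 and the line the median. The medians run from -0.13 to 0.28, and the largest rise, 2.36, is that of Pla1a among the phospholipases.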

How the data were processed

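Whole-lung RNA was sequenced, and the authors deposited FPKM values of 4 libraries in 1 table, per the file headers. The submitters' processing notes list Bowtie2, HISAT, mm10 and GRCm38. Which tool did what, and which one quantified, is not given in the sources used here. Because FPKM is relative to a library's total, an abundant gene shifts all others, and the most abundant one, Scgb1a1, made up 3.98% and 4.28% of summed FPKM with bleomycin and 11.2% and 8.35% with PBS. Of 17692 rows, 1 without a name was left out (at most 0.0009% of a library's sum), and 27 names turned into dates were restored through RefSeq accessions. The design text speaks of triplicates, while 2 libraries per group were analysed here.

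Log2(FPKM + 1) values were tested for the 12986 genes averaging 1 FPKM or more, by limma 3.58.1 in R 4.3.3 (eBayes with a trend, two-sided, Benjamini-Hochberg adjustment over all genes, threshold 0.05), which was also tested on simulated data. Such log2 changes understate those of low genes. Depth was estimated from the step that 1 fragment makes in low values, between 0.03 and 0.3 FPKM, of transcripts of 300 to 1000 bases; 72.3% to 77.6% of those values lay within 0.15 of a whole fragment, at a depth chosen as the best for them. Fragment numbers use annotated, not effective, transcript lengths, and their precision covers counting error only. The members and lists were chosen with earlier results of these data known. Every member is named; called members, the highest of each role and those under the filter have values per library. Of each other list, up to 3 called genes with the largest changes are named or, with none called, the highest, some by log2 change only. Positions and promoters are RefSeq's (GRCm38.p6). Alternatives were other pseudocounts, filters, scalings and variance priors, leaving out each library in turn, and a replicate block. Tables were made in Python 3.11.15 with pandas 2.3.3.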

Additional observations from a re-analysis of the deposited data

How the results depend on the processing

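Against 2114 genes and 10 members called, the settings that moved a count by over 1.5 times were these. Without a filter 5 members were called (1 higher, 4 lower), or 13.5%, against 8.76% of all genes. Without a variance trend 6 members were called, or 16.7%, against 15.2% of all genes. Leaving out a library gave 0 to 5485 genes and 0 to 21 members: none without either PBS library, when the spread comes from the bleomycin pair alone (1120 genes higher and 1007 lower before adjustment, at p under 0.05, when PBS replicate 1 was out, and 1143 higher and 1059 lower when PBS replicate 2 was), and more when 1 bleomycin library was out and the spread came from the PBS pair. With the replicate block 1641 genes (12.6%) and 7 members (19.4%) were called. Cds2, Chka and Pnpla2 were then lost (adjusted p = 0.0901, 0.0849 and 0.0909 by limma). Same-numbered libraries deviated together with a correlation of 0.0231 across genes. With 1 difference between replicates per group, that value cannot show whether same-numbered libraries shared a batch. No called member changed direction under any setting tried. Uncalled members near 0 did: Cept1 was at 0.0103 with quantile normalization, 0.061 rescaled to TPM, 0.00825 with upper quartile scaling, and -0.09996 to 0.0877 when a library was left out (0.0478 without PBS replicate 2), and Abhd5 and Mgll were at 0.0232 and 0.0277 rescaled to TPM. Leaving out a library also turned Agpat4, Pisd, Pemt and Mgll, whose log2 changes then ranged from -0.24 to 0.00973, -0.0106 to 0.17, -0.099 to 0.12 and -0.12 to 0.0384, with Pemt at -0.0608 without PBS replicate 1. The causes of these shifts were not tested. With 2 libraries per group the spread between libraries limits what can be called.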
